A study of Mus musculus with 1536 samples.

Results

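The 50 *Gja4*-high lymphatic endothelial cells (LECs) described here were chosen by measured values, as the adult nasopharyngeal cells with the highest mean value over *Gja4*, *Clu*, *Adm*, *Nsg1* and *Lypd6*, and make up 5.94% of the adult cells with values. Each value is a natural log, taken of a gene's reads per 10000 reads of the cell with 1 added, and is written as an ln value, and the mean of the 5 genes was taken in each cell. The remaining 94.1% of adult cells are called other cells. The 5 rule genes chose the members, so any level of theirs given here is a description, and they were left out of the calls and ratios across all genes. The working name of these cells is downstream valve-like, and its fit to the data is given below.

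Lymphatic valves keep lymph moving in a single direction. A valve is a pair of leaflets covered by endothelial cells, and the cells on the upstream face, the downstream face and the sinus wall meet different flow. PROX1, FOXC2 and GATA2 are transcription factors needed to form valves, integrin α9 and fibronectin build the leaflet core, and connexins, which form gap junction channels between neighbouring cells, differ between the faces of a valve. *Gja4* encodes connexin 37, which is needed for lymphatic valve development, *Clu* the secreted chaperone clusterin, *Adm* the vasoactive peptide adrenomedullin, *Nsg1* an endosomal protein of membrane traffic and *Lypd6* a Ly6-family regulator of WNT signalling and nicotinic receptors.

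The cells came from C57BL/6J mice (c57bl/6 in the labels) aged 10–12 weeks, and the nasopharyngeal mucosa of 30 animals of both sexes was pooled before living CD31+PDPN+ cells were sorted. Smart-seq3 libraries, which cover transcripts along their full length, were made from single cells in plates. No column name gives a mouse or plate, so all the cells are 1 sample, no test between cells was made, and standard deviations (SD) are over cells. All cells share the strain, the tissue, the sort and the absence of any treatment named in the labels.

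Members had 13936 to 1979990 reads with a median of 397630.5, against 7433 to 3524358 with a median of 344337.5 in other cells. Genes with reads numbered 4315 (median) in members and 4171.5 in other cells. Ranked by depth and cut into 4 groups of like size, the cells held 9, 12, 16 and 13 members from the shallowest to the deepest, so the members were found at every depth. Reads of both *Xist* and a Y-linked gene, which a single mouse cell should not carry together, were found in 3 members (6%) and in 6.19% of other cells.

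The mean over the rule genes ran from 1.41 to 3.28 in members, with a median of 1.85, and from 0 to 1.41 in other cells, with a median of 0.553. The cell ranked 50 had 1.412 and the cell ranked 51 had 1.410, so the members end where the rule ends and not at a gap. Reads of all 5 genes were found in 26 members, of 4 genes in 19 and of 3 genes in 5, whereas 21 other cells had all 5. *Gja4* itself had no read in 6 of the 50 members.

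*Gja4* lies on chromosome 4 of GRCm38 (127311421 to 127314039, minus strand). Its ln value ran from 0 to 3.87 in members with a median of 1.56, and from 0 to 3.43 in other cells with a median of 0. The values of the single cells therefore overlapped over nearly the whole range. The members were chosen by the mean over the 5 genes, and they are the upper end of a range without a gap. The other rule genes had member medians of 2.68 for *Clu*, 2.13 for *Adm*, 2.78 for *Nsg1* and 0.651 for *Lypd6*.

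The 250 bases upstream of the annotated start of *Gja4* (RefSeq, GRCm38.p6, chr4:127314040-127314289, minus strand) are shown because the cells are named for this gene and valve formation is tied to forkhead and GATA factors:
Gja4 upstream region: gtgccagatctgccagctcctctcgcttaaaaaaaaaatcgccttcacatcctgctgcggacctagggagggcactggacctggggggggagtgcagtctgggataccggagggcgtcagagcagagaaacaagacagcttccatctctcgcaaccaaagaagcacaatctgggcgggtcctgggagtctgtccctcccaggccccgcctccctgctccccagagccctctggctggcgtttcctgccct
A forkhead, a GATA and an AP-1 motif were searched on both strands, and capitals would mark a match. None was in this window, which says only that these letters are not there. The forkhead letters GTAAACA were in 3.17% of 32851 upstream windows of the same length. The GATA letters AGATAA were in 9.99% of these windows. The letters of the AP-1 motif, TGACTCA, were in 4.46% of them.

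Each rule gene was also read in the 50 cells that the other 4 genes alone would choose, a set in which the gene had no say. *Clu* had a mean of 2.14 ± 1.29 (SD, n = 50 cells) there and 0.641 ± 0.906 in the remaining cells, and *Adm* had 1.52 ± 1.25 and 0.435 ± 0.751. *Lypd6* had 0.676 ± 0.773 against 0.0557 ± 0.235, with values above 1 in 32% against 2.15% of cells. *Gja4* had 1.30 ± 1.19 against 0.548 ± 0.822, and *Nsg1* had 2.45 ± 0.992 against 1.33 ± 0.901. The 5 genes were put in 1 rule with earlier results of these data known, so these values are a description and support nothing. Between 40 members (without *Clu* or without *Adm*) and 47 members (without *Lypd6*) stayed in these alternative sets.

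**Figure D1:**
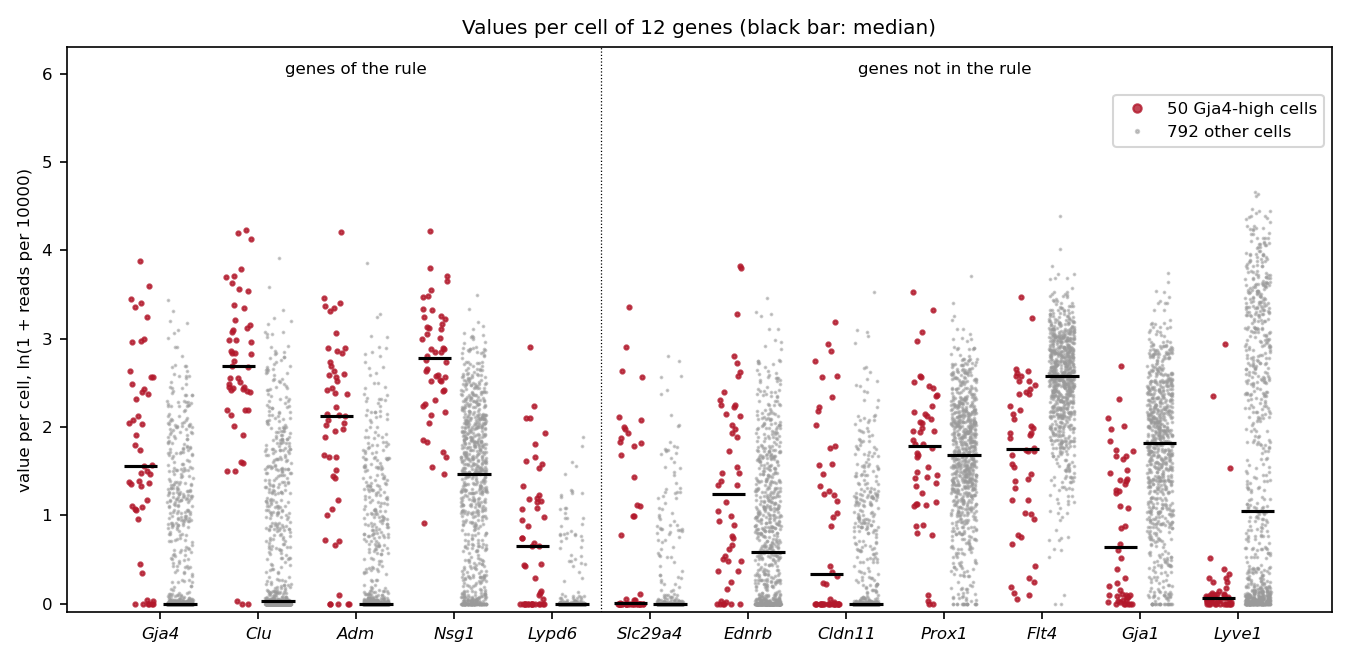
The ln values of 12 genes (reads per 10000 with 1 added) in each of the 50 *Gja4*-high cells (red) and each of the other cells (grey), with a black bar at each median. The 5 genes left of the dotted line chose the cells, and of the others *Slc29a4*, *Ednrb* and *Cldn11* were higher and *Flt4*, *Gja1* and *Lyve1* lower in *Gja4*-high cells, with overlapping ranges throughout.

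Whether the working name holds was read from genes outside the rule. *Cldn11*, a tight junction claudin that marks valve cells, was higher in the members than in other cells, and so was *Gata2*. *Gata2* was not called against the collecting-like cells described below. *Foxc2* and *Itga9* missed the threshold, and 20 of 50 members had no *Cldn11* read. Reads of both *Prox1* and *Flt4* were found in 48 of 50 members, so they are taken as lymphatic. Of 13 genes of lymphatic identity, however, 8 were lower than in other cells, *Flt4* among them, and none was higher. The members held genes of collecting vessels as well as of valves, so they are called *Gja4*-high cells here and not valve cells.

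*Cldn11* (chromosome 3, 31149920 to 31164324) had ln values from 0 to 3.19 in members with a median of 0.337, and from 0 to 3.53 in other cells with a median of 0. Reads were found in 30 of 50 members (60%, 95% exact interval 45.2 to 73.6) and in 35.9% of other cells (32.5 to 39.3), and the mean was 0.891 ± 1.03 against 0.343 ± 0.642. Intervals here and below are Clopper–Pearson intervals and cover counting error only. *Cldn11*-positive cells were common outside the members too. Reads of *Gja4* and *Cldn11* together were found in 26 members (52%) and in 19.1% of other cells. With values above 1 for both genes, which is 1.72 reads per 10000, the shares were 32% and 4.55%. *Gja4* was a gene of the rule, so nothing is read from these shares.

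*Gata2* ran from 0 to 2.49 in members with a median of 0.486, and from 0 to 3.18 in other cells with a median of 0. It was found in 34 members (68%, 53.3 to 80.5) and 40.2% of other cells (36.7 to 43.7), a log2 ratio of 0.77. *Foxc2* was found in 20 members (40%, 26.4 to 54.8) and 22.6% of other cells (19.7 to 25.7), with a log2 ratio of 0.29 just under the threshold of 0.3. The log2 ratio divides the members' mean reads per 10000 by that of other cells, with a pseudocount of 1 on each side. *Cldn11*, *Foxc2* and *Gata2* were found together in 11 members and in 5.43% of other cells, and 6 members had none of the 3, against 35% of other cells.

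*Prox1* had ln values from 0 to 3.53 in members (median 1.78) and from 0 to 3.70 in other cells (median 1.69), and its log2 ratio was 0.23. Only 2 members had no *Prox1* read. The receptor gene *Flt4* was found in every member, from 0.0554 to 3.47 with a median of 1.75, but lay lower than in other cells, whose median was 2.57 (log2 ratio −0.94). The endothelial cadherin gene *Cdh5* had medians of 1.86 and 1.83 (log2 ratio −0.04), and *Pecam1*, which encodes CD31, had medians of 2.31 and 2.26. *Pdpn*, whose product was used in the sort, had medians of 0.852 and 1.56 (log2 ratio −0.78). Of the lymphatic markers given here, *Prox1* was not called, and *Flt4* and *Pdpn* were lower. *Cdh5* and *Pecam1* are shared by all endothelial cells, and neither was called.

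Across all genes, genes of collecting vessels and of a vasoactive peptide were among those with the largest ratio in *Gja4*-high cells, and genes of capillaries and matrix among those with the smallest. *Slc29a4*, *Nts*, *Igfbp5*, *Apoe* and *Cldn11* were among the 20 with the largest ratio, and *Lyve1*, *Aqp1*, *Reln*, *Fbln2* and *Tnc* among the 10 with the smallest. Both groups were mixed. *Ahsg*, *Slc41a1*, *Klrb1f*, *Bcam*, *Atp1b3* and *Tsc22d1* were also among the 20, and *Gm525*, *Igfbp4*, *Ablim3*, *Mgll* and *Gpihbp1* among the 10. These genes are in none of the gene lists used here. A gene was called higher at a log2 ratio of at least 0.3 with reads in at least 30% of members, and lower at −0.3 or less with reads in at least 30% of other cells. Of 22784 genes compared, 1.73% were called higher and 2.07% lower. Among the 5253 genes with reads in at least 30% of all cells, these shares were 5.92% and 8.95%. The counts of genes called in the lists below are to be read beside these shares. At a log2 ratio of at least 1 or at most −1, 17 genes were higher (0.0746%) and 25 lower (0.11%). The rule chose the members on values of the same cells, so these counts are a description and nothing is read from them. With the highest cell of each group left out for each gene, 0.904% of genes were higher and 3.3% lower. A single cell weighs more in the mean of the members, the smaller group, than in that of other cells. These shares therefore do not measure how far the counts rest on single cells, which was not tested.

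**Figure D2:**
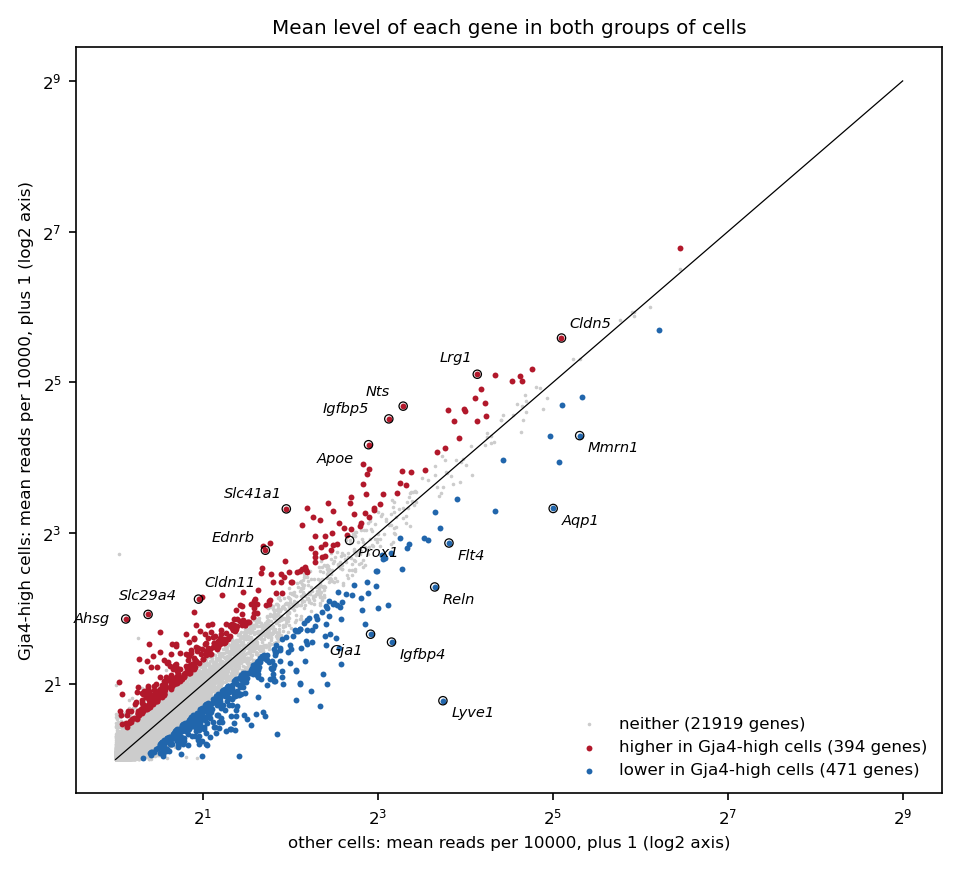
Mean reads per 10000 plus 1 of every gene compared in the other cells (horizontal) and the 50 *Gja4*-high cells (vertical), both on log2 axes, with the line of equal level. Red points are the genes called higher (1.73%) and blue points those called lower (2.07%), and *Lyve1* lies farthest below the line among the genes with names.

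*Slc29a4* (chromosome 5, 142692512 to 142722490) encodes a plasma membrane transporter of monoamines. It had ln values from 0 to 3.36 in members with a median of 0.00588, and from 0 to 2.80 in other cells with a median of 0. It was found in 25 of 50 members (50%, 35.5 to 64.5) and in 15.5% of other cells (13.1 to 18.2), and its log2 ratio was 1.55. With every cell thinned to 20000 reads the shares were 39.6% and 8.61%. Among the 8 measured genes of monoamine and nucleoside transport it was the only one called, with no gene lower and a list median of 0.07 beside −0.0021 over all genes. *Slc29a4* and *Cldn11* were both above 1 in 9 members (18%, 8.58 to 31.4) and in 1.39% of other cells (0.695 to 2.47).

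*Ednrb*, the endothelin B receptor, ran from 0 to 3.82 in members with a median of 1.24, and from 0 to 3.46 in other cells with a median of 0.589 (log2 ratio 1.06). *Nts* (chromosome 10, 102481756 to 102490486), which encodes the peptide neurotensin, ran from 0 to 4.81 with a median of 2.20, against 0 to 5.77 with a median of 0.274 (log2 ratio 1.40). Other cells with very high *Nts* were thus as high as any member, while 33 members (66%, 51.2 to 78.8) and 36% of other cells (32.6 to 39.4) were above 1. *Nos3*, which makes nitric oxide, was found in 38 members (76%) and 50.3% of other cells (log2 ratio 0.59).

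Genes of adrenomedullin reception differed in sign. *Ramp2*, which turns the calcitonin receptor-like receptor into an adrenomedullin receptor, had medians of 2.15 and 1.87 (log2 ratio 0.38). *Calcrl*, the receptor itself, had medians of 0.223 and 0.829 (log2 ratio −0.56), and *Ackr3*, a decoy receptor for adrenomedullin and CXCL12, had a log2 ratio of −0.47. The endothelin converting enzyme gene *Ece1* was lower too, at −0.45. Of 20 measured genes of adrenomedullin, endothelin and vasoactive signalling, 4 were higher (*Nts*, *Ednrb*, *Nos3* and *Ramp2*), 4 lower (*Calcrl*, *Ackr3*, *Ece1* and *Gucy1b3*, a subunit of the nitric oxide receptor) and 12 neither, with a median of −0.0073.

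*Ahsg*, the gene of the plasma protein fetuin A, had the largest ratio of all called genes (log2 ratio 1.75). Its ln value ran from 0 to 3.56 in members with a median of 0, and from 0 to 2.71 in other cells, and it was found in 22 members (44%, 30 to 58.7) and 7.95% of other cells (6.17 to 10.1). More members were without it than with it, but 14 members and 1.14% of other cells were above 1. Exons of *Ahsg* (chromosome 16, 22891277 to 22899449) overlap *Gm30505* on the other strand, and strand use in counting is not given in the sources used here.

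*Gja1* (chromosome 10, 56377330 to 56402513), which encodes connexin 43, ran from 0 to 2.69 in members with a median of 0.636, and from 0 to 3.74 in other cells with a median of 1.81 (log2 ratio −1.25). Only 6 of 50 members lay above the median of the other cells. Apart from *Gja4*, *Gja1* was the only one of 7 measured connexin and pannexin genes that was called.

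Of the 30 valve formation genes, 8 were higher, 2 lower and 20 neither (all genes: 1.73% higher, 2.07% lower). The median log2 ratio was 0.10. Besides *Cldn11* and *Gata2*, the higher ones were *Fn1* (0.79), the gene of fibronectin, *Foxp2* (0.70), *Acvrl1* (0.58), a BMP9 receptor, *Lama5* (0.54), a laminin chain, *Efnb2* (0.47), a ligand of Eph receptors, and *Klf2* (0.47), a factor induced by flow. *Gja1* and *Eng* (−0.37), a co-receptor of *Acvrl1*, were lower. Against the collecting-like cells described below, *Gata2*, *Fn1*, *Foxp2*, *Acvrl1* and *Efnb2* were not called. *Fn1* ran from 0 to 4.47 in members with a median of 2.14, and from 0 to 3.93 in other cells with a median of 1.42. *Lama5* was found in 23 members (46%, 31.8 to 60.7) and 15.2% of other cells (12.7 to 17.8). The integrin *Itga9*, a receptor for fibronectin in valve leaflets, had medians of 0.858 and 0.687 (log2 ratio 0.25).

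Of 8 upstream-valve genes, 3 were higher and none lower (all genes: 1.73% higher, 2.07% lower), with a median of 0.19. *Plat*, the tissue plasminogen activator, ran from 0 to 4.18 in members with a median of 1.16, and from 0 to 4.87 in other cells with a median of 0.0503 (log2 ratio 0.99). *Esam*, an adhesion molecule, had a log2 ratio of 0.46. Neither *Plat* nor *Esam* was higher against the *Cldn11*-high cells without *Gja4* (−0.49 and −0.04), a set described below. Against the collecting-like cells, both were under the threshold (0.18 and 0.02). *Neo1* was found in 2 members, and *Angpt2*, whose product acts on the receptor TIE2, had medians of 1.33 and 1.29 in members and other cells. Neither *Neo1* nor *Angpt2* was called against other cells.

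Genes of collecting vessels were the list with the largest median log2 ratio. Of 13 genes, 6 were higher and none lower, with a median of 0.34, beside 1.73% higher and 2.07% lower of all genes compared. *Igfbp5*, an insulin-like growth factor binding protein, ran from 0 to 4.91 in members with a median of 2.49, and from 0 to 4.96 in other cells with a median of 0.193 (log2 ratio 1.39). *Apoe*, the lipid carrier, ran from 0 to 4.79 with a median of 0.602, against 0 to 7.13 with a median of 0.0526 (log2 ratio 1.28), and *Clca3a1* had medians of 2.42 and 1.43 (log2 ratio 0.92). *Igfbp5* and *Apoe* were each above 1 in some members and near 0 in others, and 39 members (78%, 64 to 88.5) had at least 1 of them above 1, against 50.1% of other cells (46.6 to 53.7). With the 30 highest cells in place of 50, the *Apoe* ratio was 0.10 and no longer called. *Foxp2*, *Cldn5* (0.49) and *Bgn* (0.34) were the other higher genes of the list.

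The capillary genes stood the other way. Of 16 measured genes, 9 were lower and 2 higher (all genes: 2.07% lower, 1.73% higher), with a median of −0.58. *Lyve1* (chromosome 7, 110850607 to 110863239), the hyaluronan receptor of lymphatic capillaries, ran from 0 to 2.94 in members with a median of 0.058, and from 0 to 4.65 in other cells with a median of 1.05 (log2 ratio −2.96). It was above 1 in 3 members (6%, 1.25 to 16.5) and in 51% of other cells (47.5 to 54.5). *Aqp1*, a water channel, had medians of 0.10 and 1.30, and its log2 ratio was −1.67, with 3 members at values above 3. The chemokine gene *Ccl21a* had medians of 0 and 0.911 (log2 ratio −1.13), and *Reln*, the secreted glycoprotein reelin, had medians of 1.20 and 2.29 (log2 ratio −1.36). *Stab2* (−1.10), *Fndc1* (−0.71), *Stab1* (−0.67), *Mrc1* (−0.60) and *Piezo2* (−0.47) were the other lower genes. *Ucp2* (0.81) and *Colec12* (0.51) were higher.

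**Figure D3:**
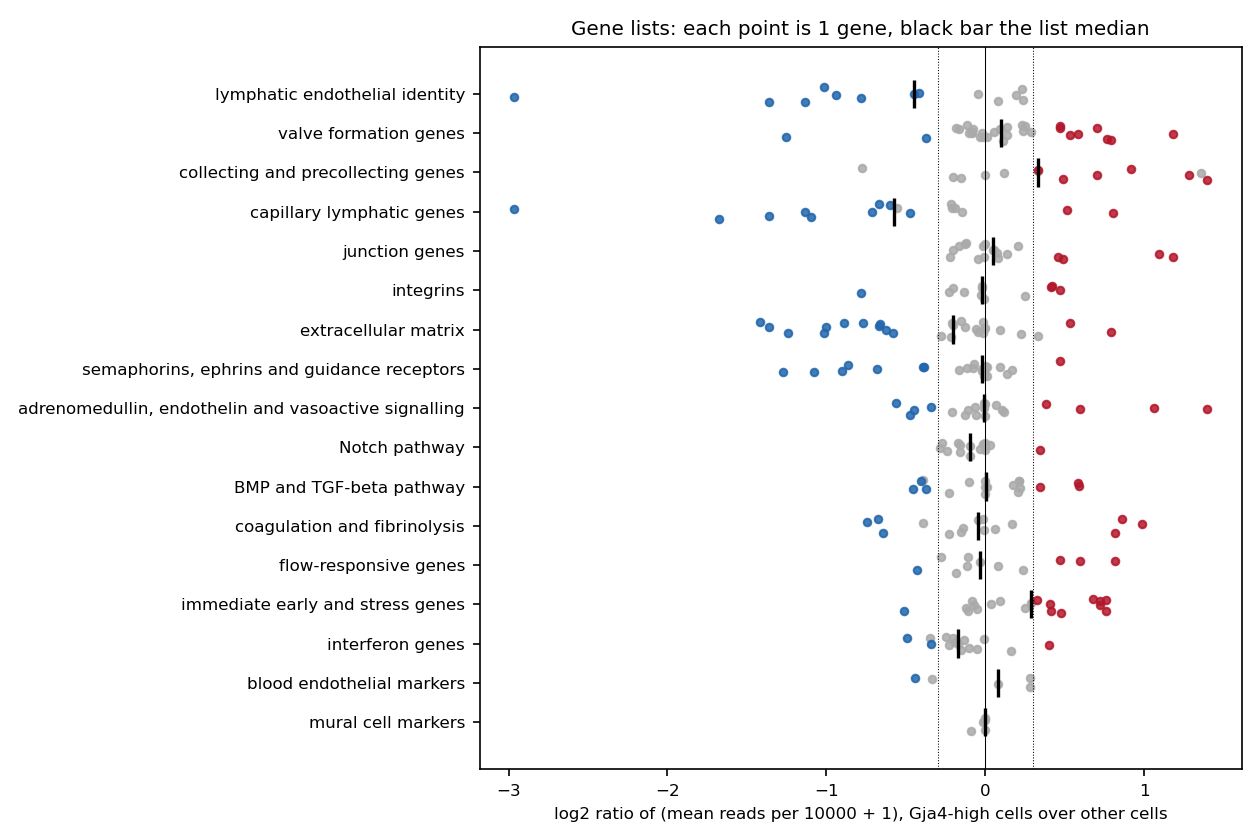
Log2 ratios of single genes (points) in 17 gene lists, *Gja4*-high cells over other cells, with the list median as a black bar and dotted lines at 0.3 and −0.3. Red and blue points were called higher and lower, the collecting list lies mostly to the right, the capillary list to the left, and grey points past a dotted line failed the minimum share of cells.

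The list of lymphatic identity had 8 of 13 genes lower and none higher (all genes: 2.07% lower, 1.73% higher). Its median was −0.45. Besides *Lyve1*, *Ccl21a*, *Reln*, *Flt4* and *Pdpn*, these were *Mmrn1* (−1.01), a secreted multimerin, and the transcription factor genes *Sox18* (−0.45) and *Nr2f2* (−0.42). *Mmrn1* was found in every member, with a median of 2.87 against 3.56. Several of these genes are also in the capillary list, so the lists are not independent.

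Some junction genes were higher. Of 19 genes, 4 were higher (*Cldn11*, *Cdh13*, *Cldn5* and *Esam*) and none lower, with a median of 0.05. The shares over all genes compared were 1.73% higher and 2.07% lower. *Cldn5*, the main endothelial claudin, ran from 2.73 to 5.22 in members with a median of 3.72, and from 0.0758 to 4.83 in other cells with a median of 3.46. *Cdh13*, a cadherin without a cytoplasmic part, had medians of 1.53 and 0.326 (log2 ratio 1.10).

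Of 12 integrin genes, *Itga3* (0.47), *Itga6* (0.42) and *Itgb4* (0.41) were higher, and all of them encode subunits of laminin receptors. *Itga1*, a subunit of a collagen receptor, was lower (−0.78), and the list median was −0.02. The shares over all genes compared were 1.73% higher and 2.07% lower. *Itgb4* was found in 41 members (82%) and 66.7% of other cells, but its call was lost under 6 of 19 alternatives and those of *Itga6* and *Itga3* under 4 and 3.

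Of 28 matrix genes, 11 were lower, 2 higher (*Fn1* and *Lama5*) and 15 neither, with a median of −0.20. Over all genes compared, 2.07% were lower and 1.73% higher. *Fbln2* (−1.42), a fibulin, *Tnc* (−1.36), tenascin C, *Thbs1* (−1.24), thrombospondin 1, and *Sparc* (−1.0) had the largest differences, and the collagen IV genes *Col4a1* (−0.89) and *Col4a2* (−0.77) were lower together. *Tnc* was above 1 in no member and in 24.4% of other cells, and a count of 0 of 50 cells allows a share of up to 6% (3 cells, a limit other than the Clopper–Pearson bound). *Col8a1*, a short-chain collagen outside the list, was found in 17 members (34%, 21.2 to 48.8) and 3.03% of other cells (1.95 to 4.48), with a log2 ratio of 0.99.

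Guidance genes had 7 of 23 lower and 1 higher (all genes: 2.07% lower, 1.73% higher), with a median of −0.02. The receptors *Robo4* (−1.27), *Nrp2* (−1.08) and *Unc5b* (−0.90) and the ligand *Sema3f* (−0.86) were lower, and *Efnb2* was higher. *Nrp2*, a co-receptor of VEGFR3 and of class 3 semaphorins, had medians of 0.221 and 1.52. *Robo4* had medians of 0.0197 and 1.17, and no member reached the upper 10% of other cells.

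Notch genes were mostly not called. *Dll1*, a ligand, was the only one of 15 that was called (0.35, higher), with a list median of −0.10. In the BMP and TGF-β list of 18 genes, the ligand *Bmp4* (0.59), *Acvrl1* (0.58) and the target *Id1* (0.35) were higher, the ligand *Tgfb2* (−0.45), the receptor *Tgfbr2* (−0.40) and *Eng* were lower, and the median was 0.0042. *Dll1* lost its call under 5 of 19 alternatives and *Bmp4* under 4.

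The protein C receptor *Procr* had medians of 1.52 and 0.607 (log2 ratio 0.86) and thrombomodulin, *Thbd*, medians of 1.70 and 1.23 (0.82). With *Plat* they were the 3 higher genes of 15 on coagulation and fibrinolysis, of which 9 were neither, beside *F8* (−0.74), *Plau* (−0.68) and *Plaur* (−0.64), which were lower, and a median of −0.05. The complement list of 11 genes had 3 genes higher, *Apoe* and *Apod* (0.56) among them, *C3* (−0.91) lower and a median of 0.13. *Klf2*, *Nos3* and *Thbd*, which are known to rise with flow, were the 3 higher genes of the flow-responsive list of 11, *Ctgf* (−0.43) was lower and the median was −0.04. *Ctgf* lost its call under 6 of 19 alternatives. Beside these lists, 1.73% of all genes compared were higher and 2.07% lower.

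Of 19 immediate early and stress genes, 9 were higher, 1 lower (*Gdf15*, −0.51) and 9 neither, with a median of 0.29. Over all genes compared, 1.73% were higher and 2.07% lower. The sum over the list ran from 3.41 to 52.3 in members with a median of 31.9. In other cells it ran from 0.962 to 55.4 with a median of 28.9. *Jun* and *Ier2* (0.76 each), *Nr4a1* and *Hspa1a* (0.72 each) had the largest ratios, and *Hspa1a* lost its call under 10 of 19 alternatives. The part of this difference in the other results was not tested. Leaving out the 25% of all cells with the highest mean over the list kept 32 members. With these, 77.7% of the higher genes and 80.7% of the lower genes were still called. More genes were called in both directions there than as reported, so these shares do not measure that part. *Nr4a1* (−0.025) and *Hspa1a* (−0.011) were not higher there. Interferon genes gave 1 higher (*Ifi27*, 0.40) and 2 lower (*Bst2*, −0.49, and *Usp18*, −0.34) of 15, with a median of −0.17, and *Usp18* lost its call under 13 of 19 alternatives.

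Markers of other cell types were read for the whole of each list. None of the 5 mural markers had a read in any member. Fibroblast markers (3 of 5), immune markers (2 of 5) and Schwann cell markers (2 of 4) had reads in some member. Their summed ln values were at most 0.996, 1.25 and 1.07 in any member. Of the epithelial markers, *Epcam* and *Krt18* had reads in some member (means of 0.00014 and 0.0036) and *Krt8* in none. *Cdh1* was not in the matrix, and a shared synonym had put *Fzr1*, which is no epithelial marker, in its place (mean 0.116). No epithelial sum is therefore given. No member had reads of 3 markers of any of these types. In other cells the summed values reached 11.9 for fibroblast, 2.88 for mural, 9.45 for immune and 3.17 for Schwann cell markers.

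The blood endothelial list is less clear-cut. Its sum ran from 0 to 6.59 in members (median 2.59) and from 0 to 6.95 in other cells (median 2.63), and 12 members (24%) and 26% of other cells had reads of at least 3 of 5 genes. *Emcn* and *Plvap* were found in 92% and 74% of members and in 94.3% and 78% of other cells, so they are shared by most cells of the sort. *Flt1*, the blood endothelial VEGF receptor, was found in 7 members (14%, 5.82 to 26.7) and in 1.77% of other cells (0.970 to 2.95), and all 7 had *Prox1* reads. *Ly6c1* was found in 1 member. *Flt1* was named after its values were seen, and its part in the results was not tested. Leaving out all cells with 3 or more markers of another type kept 38 members. With these, 85% of the higher and 89.8% of the lower genes were still called. That filter also counts *Emcn* and *Plvap*, so it does not single out cells with *Flt1*, and nothing is read from it on *Flt1*. Of 9 arterial genes, *Efnb2* was higher, *Stmn2* (−0.98), *Unc5b* and *Fbln5* (−0.66) were lower, and the median was −0.13.

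The members varied among themselves. The 30 members with *Cldn11* reads were deeper than the 20 without (medians of 483851 and 306052.5 reads), and the part of depth in this split was not tested. Between them, 17 genes had a log2 ratio of at least 1 (0.0746% of 22783 genes) and 15 of at most −1 (0.0658%). *Gja4* had means of 1.71 ± 1.20 with and 1.69 ± 0.948 without *Cldn11*, *Clu* had 2.58 ± 0.910 and 2.69 ± 1.02, and *Nsg1* had 2.72 ± 0.663 and 2.72 ± 0.688. *Adm* was 1.84 ± 1.04 with and 2.18 ± 1.07 without (log2 ratio −0.50), and *Lypd6* was 0.766 ± 0.647 and 0.709 ± 0.932 (−0.34).

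*Plat* was higher in members with *Cldn11* reads (1.64 ± 1.30 against 0.594 ± 0.943, log2 ratio 1.75). *Slc29a4* was above 1 in 13 of 30 members with *Cldn11* reads and in 4 of 20 without. *Lyve1* was low on both sides (0.231 ± 0.586 and 0.210 ± 0.515). Among genes named after their values were seen, *Ackr3* (1.61) and the chemokine gene *Cxcl1* (1.47) were higher with *Cldn11*. *Aqp1* (−4.36) and *Stab2* (−1.78) were lower with *Cldn11*, and each was above 1 in 4 of the 20 members without *Cldn11* reads and in none of the 30 with them. *Aqp1* and *Stab2* were above 1 together in 3 members, which is 6% (1.25 to 16.5) against 29.9% of other cells (26.8 to 33.2). These 3 members are marked by the same 2 genes as the capillary-like cells described next. Leaving out all cells with *Aqp1* above 3 took these 3 members and also 39.1% of other cells. With the rest, 77.9% of the higher and 74.7% of the lower genes were still called. The part of the 3 members alone was not tested.

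**Figure D4:**
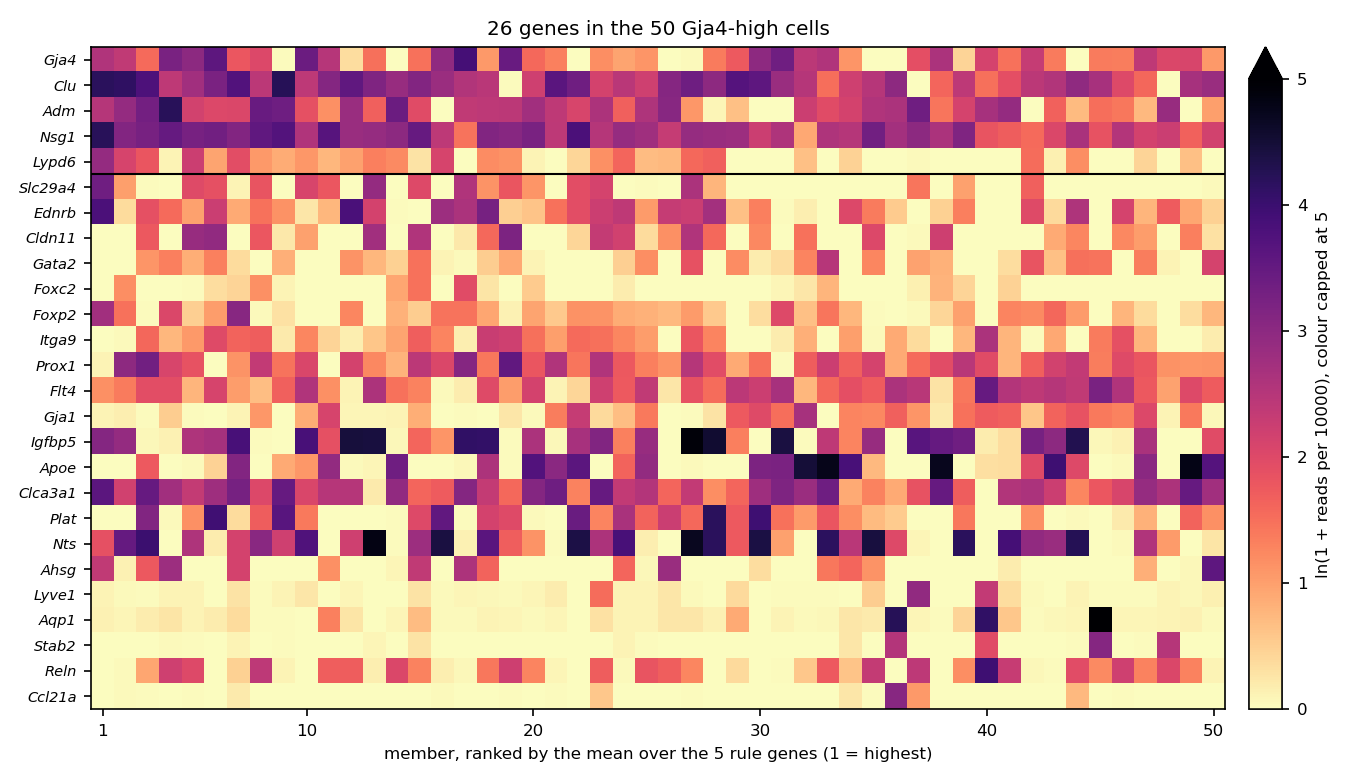
The ln values of 26 genes (rows) in the 50 *Gja4*-high cells (columns), ranked from the highest mean over the rule genes at the left. Rule genes lie above the black line, *Igfbp5*, *Apoe* and *Nts* are dark in some members and near 0 in others, and *Aqp1* with *Stab2* is dark in 3 members at ranks above 30.

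The members were set against 3 other kinds of cells. Each set was the 50 highest of the other cells. The first had the highest *Cldn11* without a *Gja4* read, the collecting-like set had the highest mean of *Igfbp5*, *Clca3a1* and *Apoe*, and the capillary-like set the highest mean of *Stab2*, *Aqp1* and *Ptx3*. The *Cldn11*-high set shared 5 cells with the collecting-like set and 1 with the capillary-like set. Median reads were 206587.5, 347572 and 208512, so the members were deeper than the *Cldn11*-high and the capillary-like set.

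By the collecting score, 29 of the 50 members lay among the 210 highest of all adult cells and 10 among the 50 highest. By *Cldn11* these numbers were 23 and 11, and by the capillary score 3 and 2. The members thus overlapped with cells high in collecting genes and with cells high in *Cldn11* more than with capillary-like cells.

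Against the capillary-like set, 3.36% of genes were higher and 4.6% lower. *Igfbp5* (3.94), *Apoe* (3.49), *Clca3a1* (3.03), *Nts* (2.76) and *Plat* (2.7) had the largest ratios, and *Gm525* (−3.40), *Thbs1* (−2.77) and *Igfbp4* (−2.63), a binding protein of insulin-like growth factors, the smallest. *Slc29a4* and *Ahsg* were above 1 in 17 and 14 members and in no capillary-like cell.

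Against the *Cldn11*-high cells without *Gja4*, 2.42% of genes were higher and 2.7% lower. *Ahsg* (1.78), *Rasd1* (1.56), a small GTPase, *Slc29a4* (1.34) and *Tsc22d1* (1.30) had the largest ratios. *Lyve1* (−2.66) had the smallest. *Lyve1* was above 1 in 20 of these 50 cells and in 3 members, and *Gja1* had a mean of 1.56 ± 0.776 there and 0.830 ± 0.790 in members. *Nts* (2.08 ± 1.72 and 2.13 ± 1.71) and *Ednrb* (1.29 ± 0.968 and 1.33 ± 1.05) had like means in both, and *Plat* had 1.40 ± 1.46 there and 1.22 ± 1.27 in members.

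Against the collecting-like set, 2.26% of genes were higher and 2.03% lower. Leaving aside *Aqp1* (2.74), which the 3 members above carried, *Angpt2* (1.66), *Rasd1* (1.61) and *Ahsg* (1.49) had the largest ratios, and *Slc29a4* (1.24) and *Cldn11* (1.15) were also among the 10 largest. *Fgl2* (−1.42), a fibrinogen-like protein, and *Rnd1* (−1.29), an atypical small GTPase, had the smallest. *Lyve1* was low in both (0.348 ± 0.452 in the collecting-like set), and *Gata2* (0.543 ± 0.590) lay near the members' 0.656 ± 0.679. Of the valve list, *Gata2* (0.23), *Fn1* (0.23), *Foxp2* (0.29), *Acvrl1* (0.07) and *Efnb2* (0.10) were under the threshold against this set. *Lama5* (0.52) and *Klf2* (0.42) were over it. *Nos3* (0.08), *Thbd* (0.22) and *Procr* (0.18) were also under it.

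Of the genes called higher against all other cells, 29.2% were also higher against each of the 3 sets, and of those called lower 17.6% were also lower. *Ahsg* (smallest log2 ratio against any set 1.49), *Slc29a4* (1.24), *Fibin* (0.91), *Col8a1* (0.85), *Nav2* (0.70), *Atp1b3* (0.67), a subunit of the sodium pump, and *Klrb1f* (0.62) were among the higher. *Gja1* (−0.97 at the nearest set), *Sema3f* (−0.65), *Igfbp4* (−0.65), *Mmrn1* (−0.63), *Nrp2* (−0.47), *Pdpn* (−0.47) and *Flt4* (−0.42) were among the lower. *Hgf* (0.61) and *Igf1* (0.58), which encode secreted growth factors, were also among the higher, and were named after their values were seen. *Nts*, *Ednrb*, *Cldn11*, *Igfbp5* and *Apoe* were not in this count, and the last 3 of them chose a set.

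**Figure D5:**
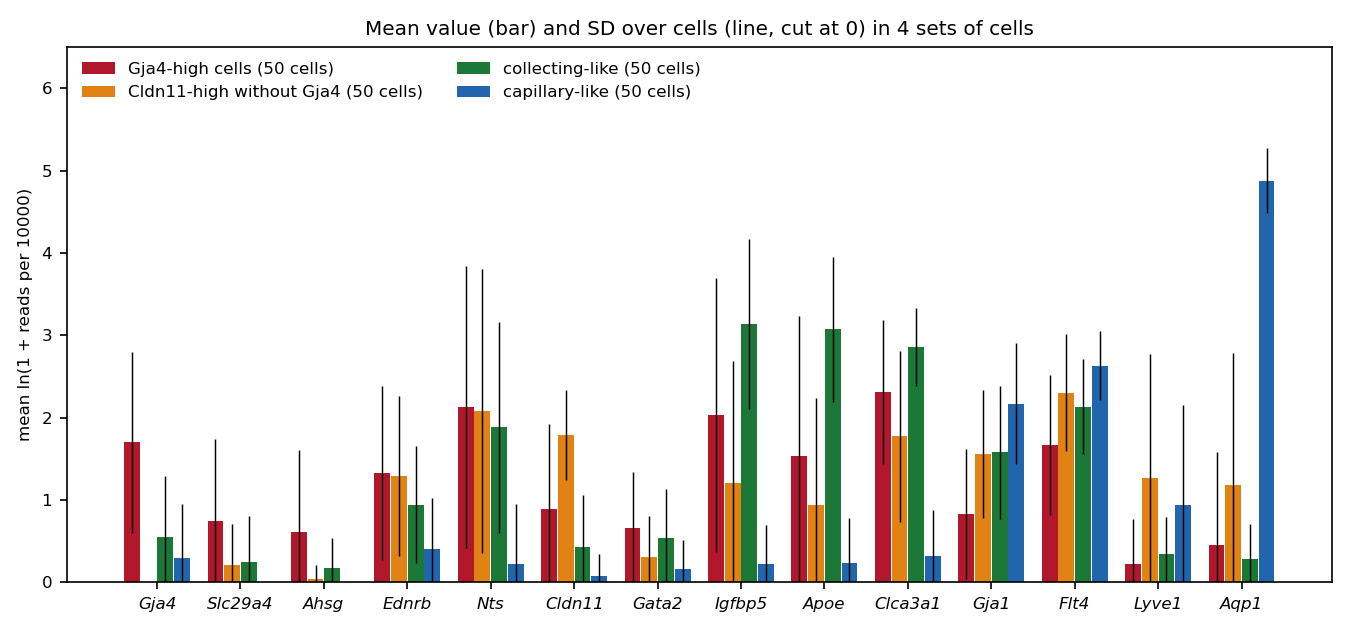
Mean ln values (bars) with the SD over cells (lines, cut at 0) of 14 genes in the *Gja4*-high cells and the 3 comparison sets, 50 cells each. *Slc29a4* and *Ahsg* are highest in *Gja4*-high cells and *Gja1* and *Flt4* lowest there, while *Cldn11*, *Igfbp5*, *Apoe*, *Clca3a1* and *Aqp1* chose the sets in which they are high and *Gja4* was at 0 by rule in the first.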

How the data were processed

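Single CD31+PDPN+ cells of the nasopharynx were sequenced by Smart-seq3. In the authors' hands, STAR placed reads on mm10, featureCounts (Subread) gave counts per gene, and Seurat 4.1.0 did the normalisation. They kept cells with at least 2000 genes and at most 10% mitochondrial reads. The deposited values are natural log values of reads per 10000 with 1 added; the methods name log2, but only the natural log made each cell sum to 10000. Strand and multimapping settings are not given in the sources used here. Whole reads were recovered for 100% of values (tolerance 0.01), which gave the depth of each cell.

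The 842 adult cells form 1 sample, so no test was run. Tables were handled in pandas 2.3.3 and NumPy 2.4.6 under Python 3.11.15, intervals came from SciPy 1.17.1 and figures from matplotlib 3.10.9. Intervals are 95% Clopper–Pearson intervals over cells and cover counting error only, as reads and cells of a pool are not independent replicates. The rule genes and genes of mitochondrial and ribosomal proteins (384 genes) were left out of 23168, and 22784 were compared. Doublets were not called. For thinned shares, 51 cells under 20000 reads, 2 of them members, were left out. Genes named are the rule genes, *Slc29a4* and *Ednrb*, the 20 called genes with the largest and the 10 with the smallest ratio, up to 4 called genes of each list and its defining genes. Other genes of a list are given where they were called, and genes said to be named after their values were seen, with *Neo1*, *Angpt2*, *Rasd1*, *Tsc22d1*, *Fgl2*, *Rnd1* and *Emcn*, are exceptions or come from the comparison with other sets. The members and lists were chosen with earlier results of these data known. The code was tested on simulated data. Positions are those of GENCODE M21 on GRCm38. Some genes are not reported here. The alternatives tried are given in the closing section.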

Additional observations from a re-analysis of the deposited data

How the results depend on the processing

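All values rest on 1 pooled sample, so the spread between mice is unknown, and a share of 50 cells has an interval of over 20 percentage points near its middle. No paired analysis was possible because there is 1 sample and no test. Of 75 named and called genes, 49 were called the same way under all 19 alternatives. The shares of genes higher and lower, 1.73% and 2.07% as reported, were 2.86% and 3.4% with 30 cells, 0.799% and 0.808% with 100 cells, 4.76% and 7.03% with a pseudocount of 0.1, 0.579% and 0.5% with differences of mean ln values, 0.904% and 3.3% without the highest cell of each group, and 0.0746% and 0.11% at a log2 ratio of at least 1. The cause was not tested, apart from the stricter threshold. The *Hspa1a* ratio turned to −0.16 with the score without *Clu*, −0.11 without *Nsg1*, −0.072 without *Lypd6*, −0.013 with only members that had a *Gja4* read, and −0.011 without the 25% of cells highest in stress genes, where *Nr4a1* turned to −0.025. With values above 1 in place of any read, the share of members with *Cldn11* was 42%. That alternative and those on stress genes, *Aqp1* and depth were chosen after seeing the data. With at least 100000 reads per cell (40 members), 2.08% were higher and 2.34% lower. A set chosen on thinned values shared 44 members.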
